A study of Homo sapiens with 18 samples.

Results

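The 9 genes described here are GFI1, GFI1B, GATA1, GATA2, ZFPM1, KLF1, NFE2, IKZF1 and MYB, regulators of blood cell fate that include the main erythroid and megakaryocytic factors. They were chosen by name among 20037 protein-coding genes, and a peak was assigned to a gene when it touched the gene or lay at most 10 kb from it. All 9 were found in the RefSeq gene table of GRCh38.p14, which names the same build as the hg38 of the submitters' processing notes. The peaks come from CUT&RUN, in which an antibody directs a nuclease to a chromatin protein and the DNA released around it is sequenced. The cells were Kasumi-1, an established myeloid leukaemia line with the t(8;21) translocation, in a version with Flag-tagged AML1-ETO, the RUNX1-RUNX1T1 fusion protein made by that translocation. The 18 libraries formed 6 groups of 3: anti-ETO, anti-Flag or mouse IgG in control cells, and the same 3 antibodies in cells with knockdown (KD) of the microRNA miR-130a. All groups consisted of transduced, GFP-positive cells sorted 3 days after transduction. The labels do not describe the control vector, how the Flag tag was introduced, or whether the 3 libraries of a group came from separate cultures, and all libraries come from 1 cell line.

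AML1-ETO keeps the DNA-binding domain of RUNX1 and joins it to ETO, which recruits corepressors, so it binds many RUNX sites near blood genes. GFI1 and GFI1B are zinc finger repressors, GATA1 and GATA2 are zinc finger factors that bind GATA sequences, and ZFPM1 (FOG1) is the cofactor of GATA1. KLF1 activates globin and other red cell genes, and NFE2 is the larger subunit of a bZIP factor needed for platelet formation. IKZF1 (Ikaros) is best known in lymphoid cells, and MYB sustains progenitor growth. An anti-ETO antibody can bind ETO sequence in any form of the fusion, while anti-Flag binds only the tagged one.

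The data were intervals with no height, score or value per library, in 1 list per antibody and condition. The 4 single-antibody lists held 14264 (control anti-ETO), 23162 (control anti-Flag), 22594 (knockdown anti-ETO) and 25961 (knockdown anti-Flag) peaks. From these the authors had made a shared list of 8731, a control-unique list of 3059 and a knockdown-unique list of 4617 intervals, each called by both antibodies. How the 3 libraries of a group were combined is not given in the sources used here, so no replicate error could be computed and no difference below was tested. The sequencing depth behind a call is unknown, and peaks of the IgG libraries were not analysed here.

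GFI1 had the largest cover by peaks, with 1 shared interval of 5730 bp on chromosome 1 (chr1:92483249-92488978) that ran across all 3 annotated start sites. GFI1 lies on the minus strand (chr1:92473043-92486925). The promoters, taken from RefSeq (GRCh38.p14) as the 250 bases before a start site and the 50 after it, are shown for GFI1 because every one was overlapped by a peak in all 4 lists. Sequences run 5′ to 3′ on the gene's strand, and capitals mark matches on either strand to 5 families of letters. The RUNX letters are TGTGGT or TGCGGT, the letters for GATA factors are AGATAA or TGATAA, the E-box letters are CAGCTG or CAGATG, the ETS letters are CCGGAA or AGGAAG, and the GFI letters are AAATCA. No match overlapped a match of another family in the promoters printed.
GFI1 promoter 1, chr1:92486876-92487175, minus strand: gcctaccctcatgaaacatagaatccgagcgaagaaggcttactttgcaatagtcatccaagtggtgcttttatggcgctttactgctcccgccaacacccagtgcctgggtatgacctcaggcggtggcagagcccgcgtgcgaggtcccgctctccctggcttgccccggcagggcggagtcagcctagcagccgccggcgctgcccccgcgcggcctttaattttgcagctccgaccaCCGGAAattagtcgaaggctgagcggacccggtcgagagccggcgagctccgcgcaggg
GFI1 promoter 2, chr1:92486050-92486349, minus strand: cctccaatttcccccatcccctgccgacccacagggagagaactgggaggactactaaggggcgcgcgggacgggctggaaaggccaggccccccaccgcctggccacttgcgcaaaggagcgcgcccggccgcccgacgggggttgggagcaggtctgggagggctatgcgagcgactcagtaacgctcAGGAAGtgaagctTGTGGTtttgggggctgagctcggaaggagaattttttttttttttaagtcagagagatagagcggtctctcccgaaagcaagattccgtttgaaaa
GFI1 promoter 3, chr1:92483765-92484064, minus strand: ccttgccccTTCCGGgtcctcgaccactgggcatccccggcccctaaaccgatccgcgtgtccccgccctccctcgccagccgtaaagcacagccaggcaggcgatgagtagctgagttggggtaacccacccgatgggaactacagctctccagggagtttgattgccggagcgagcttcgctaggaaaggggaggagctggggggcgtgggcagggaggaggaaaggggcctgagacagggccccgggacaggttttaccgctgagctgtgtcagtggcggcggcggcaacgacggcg

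Promoter 2 of GFI1 held a RUNX match, TGTGGT, that began 47 bases before the start site, and an ETS match, AGGAAG, that began 60 bases before it. Promoters 1 and 3 held an ETS match each, CCGGAA, at 9 and 241 bases before their start sites, and no RUNX match. Among all 35116 promoters of the table, 19.6% held a RUNX match and 45.4% an ETS match, so both are common words and a match is a description only.

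Further promoters show the other arrangements found at these genes. Promoter 1 of IKZF1 and the promoter of MYB were overlapped at one edge, and promoter 2 of IKZF1 carried a RUNX match (the reverse strand of TGTGGT, 144 bases before the start site) with no peak over it.
IKZF1 promoter 1, chr7:50304466-50304765, plus strand: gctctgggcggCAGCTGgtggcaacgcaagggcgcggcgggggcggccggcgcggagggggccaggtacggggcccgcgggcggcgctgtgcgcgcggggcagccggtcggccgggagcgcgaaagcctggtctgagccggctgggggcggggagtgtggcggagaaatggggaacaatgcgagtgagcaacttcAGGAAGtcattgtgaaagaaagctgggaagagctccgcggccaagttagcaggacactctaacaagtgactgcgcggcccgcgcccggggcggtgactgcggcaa
IKZF1 promoter 2, chr7:50308450-50308749, plus strand: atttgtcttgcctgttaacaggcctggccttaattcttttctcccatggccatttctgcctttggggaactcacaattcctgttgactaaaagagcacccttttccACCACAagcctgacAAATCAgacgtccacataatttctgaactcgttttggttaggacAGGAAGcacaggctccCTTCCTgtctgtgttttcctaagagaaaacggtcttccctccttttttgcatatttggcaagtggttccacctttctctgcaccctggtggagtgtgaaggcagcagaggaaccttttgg
MYB promoter, chr6:135181058-135181357, plus strand: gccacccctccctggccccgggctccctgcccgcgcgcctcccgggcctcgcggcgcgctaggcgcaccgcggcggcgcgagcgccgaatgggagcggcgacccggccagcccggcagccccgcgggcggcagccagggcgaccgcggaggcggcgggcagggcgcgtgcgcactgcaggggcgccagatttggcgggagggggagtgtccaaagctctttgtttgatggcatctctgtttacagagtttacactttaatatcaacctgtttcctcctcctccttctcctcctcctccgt
The KLF1 promoter carried a GATA match (the reverse strand of TGATAA, 66 bases before the start site) and an ETS match, and lay beside the KLF1 peak rather than under it.
KLF1 promoter, chr19:12887152-12887451, minus strand: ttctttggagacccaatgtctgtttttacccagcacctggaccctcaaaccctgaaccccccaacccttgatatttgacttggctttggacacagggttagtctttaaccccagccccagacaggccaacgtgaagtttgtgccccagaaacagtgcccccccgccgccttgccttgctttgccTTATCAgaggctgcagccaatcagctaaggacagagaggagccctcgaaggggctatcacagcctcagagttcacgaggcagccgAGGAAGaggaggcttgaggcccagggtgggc

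Of the 9 genes, 8 were in the promoter table, with 14 promoters. A peak overlapped 5 of the 14 in the control anti-ETO list, 5 in the control anti-Flag list, 5 in the knockdown anti-ETO list and 4 in the knockdown anti-Flag list. Over all promoters of the table the shares were 21.9%, 21.9%, 26.4% and 16.2%. The overlapped promoters were the 3 of GFI1, promoter 1 of IKZF1 and, in all but the knockdown anti-Flag list, that of MYB. All 4 lists overlapped 4 of the 14 promoters, beside 13.8% of all promoters, and 3 of those 4 share the 1 region at GFI1. The promoters of GFI1B, GATA1, GATA2, ZFPM1 and KLF1 were overlapped by no peak.

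With the window of 10 kb either side, 8 of the 9 genes had a peak in the control anti-ETO list, where 47.4% of protein-coding genes did. Likewise 8 had one in the control anti-Flag list (50% of protein-coding genes), 9 in the knockdown anti-ETO list (53.6%) and 8 in the knockdown anti-Flag list (42.1%). The gene without a peak in 3 of these lists was GATA2. The same 8 genes had a peak in every one of the 4 lists, which 37.2% of protein-coding genes had, and none of the 9 lacked a peak in all 4 lists, as 41.8% of protein-coding genes did. A shared interval was found at 7 genes (GFI1, GATA1, ZFPM1, KLF1, NFE2, IKZF1 and MYB), beside 35% of protein-coding genes. A control-unique interval was found only at IKZF1 (16.9% of protein-coding genes), and a knockdown-unique interval only at MYB (18.4%). Among the 14943 protein-coding genes in the length range of the 9, the shares with a shared, control-unique and knockdown-unique interval were 37.3%, 16.9% and 20.5%.

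**Figure D1:**
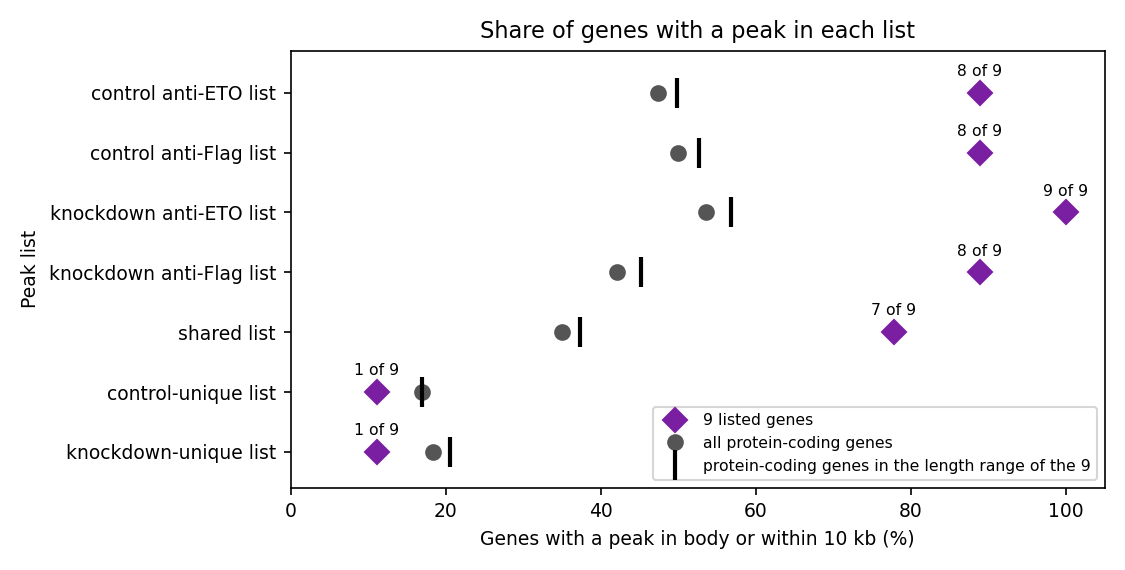
Share of genes (x axis, percent) with a peak in their window (gene and 10 kb either side) in each of 7 peak lists (y axis). Diamonds are the 9 genes, circles all 20037 protein-coding genes and bars the 14943 in the same length range; the diamonds lie above the circles in the 4 single-antibody lists and the shared list, and below them in both unique lists.

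The windows reached into neighbouring genes, and 4 of the 9 held another protein-coding gene. Restricted to peaks touching the body of the gene itself, a shared interval remained at 4 genes (GFI1, ZFPM1, KLF1 and IKZF1), beside 26.8% of protein-coding genes. By the same rule the control anti-ETO list marked 4 of the 9 genes (35.9% of protein-coding genes), the control anti-Flag list 5 (38.7%), the knockdown anti-ETO list 6 (43.3%) and the knockdown anti-Flag list 6 (32%). Intervals unique to a condition touched the body of IKZF1 in control (9.65% of protein-coding genes) and of MYB in knockdown (10.3%). The shared intervals of GATA1, NFE2 and MYB were therefore outside the gene bodies, at distances described below.

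Overlapping peaks of the 4 single-antibody lists merged into 34 regions at the 9 genes, out of 35622 regions in the series, and 18 of the 34 touched a member gene body. All 4 lists called 11 regions (32.4%, beside 24.8% of all regions), and 16 were called in 1 list only. The 11 regions were 485 to 5730 bp wide with a median of 1296 bp, and the 16 were 168 to 656 bp wide with a median of 241 bp. The corresponding medians over all regions of the series were 1056 and 280 bp. Of the 16, 6 were called by knockdown anti-Flag (17.6% of the 34, beside 22.3% of all regions), 6 by control anti-Flag (17.6%, beside 10.2%) and 4 by knockdown anti-ETO (11.8%, beside 10.3%). In the series 15764 of the 35622 regions were called in 1 list only, a share near that of the 9 genes. A merged region joins the calls of several lists, so regions in more lists are wider by construction.

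Cover was also measured as the bases under peaks, which leaves out the gap between peaks where a list split a site. The median gene among the 9 was covered over 1100 bp in the control anti-ETO list, 1890 bp in control anti-Flag, 1509 bp in knockdown anti-ETO and 1474 bp in knockdown anti-Flag. Over all protein-coding genes the medians were 0, 23, 275 and 0 bp. Averaged over the 4 lists, the order was GFI1 (5598 bp), KLF1 (3930), GATA1 (2322.5), NFE2 (1616), IKZF1 (1584.5), ZFPM1 (1355.5), MYB (742.75), GFI1B (353) and GATA2 (95.5). With 1 list per group, no error bounds the gaps between neighbours in this order, and longer windows can hold more peaks.

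**Figure D2:**
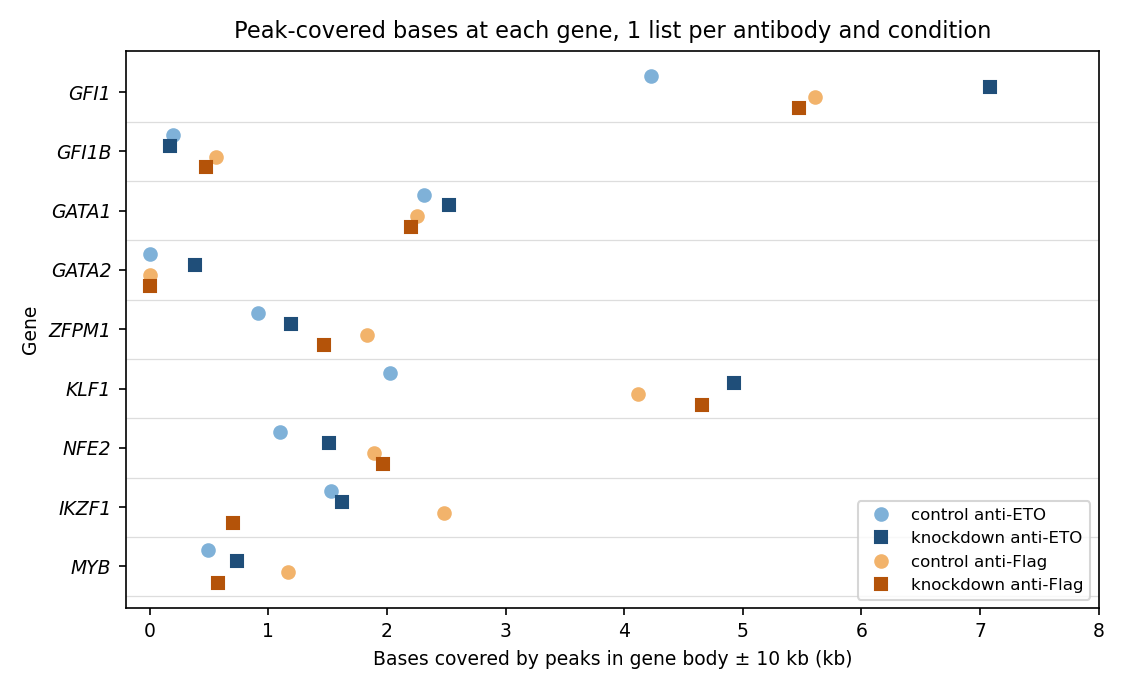
Bases covered by peaks (x axis, kb) within the gene body and 10 kb either side, for each gene (y axis). Each point is 1 peak list (circle control, square knockdown, blue anti-ETO, orange anti-Flag); GFI1 and KLF1 lie farthest right, and at IKZF1 the knockdown anti-Flag point (704 bp) lies apart from the other lists (1533 to 2479 bp).

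At GFI1, a repressor that acts in stem cells and in the choice of the granulocyte fate, peaks covered 4222 bp in control anti-ETO, 5607 bp in control anti-Flag, 7086 bp in knockdown anti-ETO and 5477 bp in knockdown anti-Flag. Knockdown anti-ETO covered the most bases and control anti-ETO the fewest, while the anti-Flag lists lay between them. GFI1 ranked 548 of 20037 protein-coding genes in mean covered bases. The start-site region was called as 1 peak of 4038 bp by control anti-ETO (chr1:92483518-92487555) and as 1 peak of 5652 bp by knockdown anti-ETO (chr1:92483327-92488978). Both anti-Flag lists split it into 2 peaks each, the wider being 4551 bp in control and 4875 bp after knockdown. The third start site (chr1:92483814) lay in the gap between the 2 knockdown anti-Flag peaks. That list covered 89 bp of promoter 3, where each other list covered all 300 bp. The whole region reached from 2053 bp upstream of the first start site into the gene beyond the last one.

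A second GFI1 region of 1023 bp inside the gene (chr1:92476169-92477191) was also called in all 4 lists and belonged to the shared list. There the calls measured 184 bp in control anti-ETO, 302 bp in control anti-Flag, 1023 bp in knockdown anti-ETO and 411 bp in knockdown anti-Flag. The knockdown call was the wider one for each antibody. Knockdown anti-ETO alone called 2 more regions, of 232 bp inside the gene and of 179 bp at 3695 bp upstream. No other gene lay in the GFI1 window.

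At GFI1B, the paralog of GFI1 that acts in red cell and platelet precursors (chr9:132945531-132993434, plus strand), the calls were few and narrow. Peaks covered 201 bp in control anti-ETO, 558 bp in control anti-Flag, 176 bp in knockdown anti-ETO and 477 bp in knockdown anti-Flag. No region was called by both antibodies, and none of the shared or unique lists held an interval. The anti-ETO calls of both conditions met in a region of 202 bp, 686 bp upstream of the first start site and inside the neighbouring gene TSC1. Both anti-Flag lists called a region of 556 bp beginning 8909 bp beyond the other end of the gene. The remaining calls were 168 bp inside the gene (knockdown anti-Flag) and 247 bp at the limit of the window (control anti-Flag). The paralogs thus stood near opposite ends of the order of cover.

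GATA1, the central activator of red cell and platelet genes (chrX:48786590-48794311, plus strand), had no peak in its body, at its promoter or within 5 kb. Its covered bases (2309 bp in control anti-ETO, 2253 bp in control anti-Flag, 2527 bp in knockdown anti-ETO and 2201 bp in knockdown anti-Flag) came from 1 region of 2762 bp (chrX:48800216-48802977). That region began 5905 bp beyond the end of GATA1 and spanned the lower-numbered end of HDAC6, a deacetylase gene. It was the only region of the GATA1 window. Each anti-Flag list split it into 2 peaks with a gap that measured 251 bp (control) or 533 bp (knockdown), and the span from the first to the last base was 2504 bp in control anti-Flag and 2734 bp in knockdown anti-Flag. The count of GATA1 among the genes with a shared interval thus rests on a peak that touches HDAC6.

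GATA2, the GATA factor of stem and progenitor cells (chr3:128479422-128493201, minus strand), had 0 peaks in control anti-ETO, 0 in control anti-Flag, 1 in knockdown anti-ETO and 0 in knockdown anti-Flag. The 1 peak (chr3:128487754-128488135, 382 bp) began 395 bp downstream of the second annotated start site. Beyond the window, the nearest peak of any of the 4 lists was 97.7 kb away. GATA2 was the only one of the 9 genes without a control call.

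ZFPM1, the GATA1 cofactor (chr16:88451769-88537031, plus strand), carried 7 regions, of which 2 were called in all 4 lists and were shared. Covered bases were 916 bp in control anti-ETO, 1836 bp in control anti-Flag, 1196 bp in knockdown anti-ETO and 1474 bp in knockdown anti-Flag, so anti-Flag covered more than anti-ETO in both conditions. The start site of ZFPM1 in the promoter table (chr16:88453280) lies inside the gene, downstream of the gene start at chr16:88451769. The shared pair flanked that start site, and both regions lay inside the gene. The first (chr16:88452542-88453026) ended 254 bp before the start site, and the second (chr16:88455265-88455975) began 1985 bp after it. The other 5 regions, of 190 to 400 bp, were called by anti-Flag alone, and 1 of them, inside ZFPM1 and the antisense gene ZFPM1-AS1, was called by anti-Flag in both conditions.

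KLF1, the erythroid Krüppel-like factor (chr19:12884422-12887201, minus strand), is the shortest of the 9 genes. Its window, which held 3 other protein-coding genes, had the second largest cover. Peaks covered 2029 bp in control anti-ETO, 4116 bp in control anti-Flag, 4922 bp in knockdown anti-ETO and 4653 bp in knockdown anti-Flag. Control anti-ETO was the low value, and the other lists lay between 4116 and 4922 bp. The region in the gene body (chr19:12884692-12886893) was shared and spanned 2202 bp, from 308 to 2509 bp downstream of the start site. The calls in it measured 956 bp in control anti-ETO, 1710 bp in control anti-Flag, 2019 bp in knockdown anti-ETO and 1536 bp in knockdown anti-Flag.

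The 2 other shared regions of the KLF1 window touched its neighbours DNASE2 (chr19:12880760-12882055) and GCDH (chr19:12890005-12891503). Another 4 regions, each in 1 list, lay within 10 kb and none of them touched KLF1. Counted in the body alone, KLF1 therefore had 1 region, called in all 4 lists.

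NFE2 (chr12:54292111-54301015) had no peak in its body and 3 regions beyond its higher-numbered end. Peaks covered 1100 bp in control anti-ETO, 1890 bp in control anti-Flag, 1509 bp in knockdown anti-ETO and 1965 bp in knockdown anti-Flag. The shared region of 1562 bp (chr12:54303407-54304968) began 2392 bp beyond the gene and touched no annotated gene. Both anti-Flag lists also called a region of 544 bp that began 1000 bp beyond the gene, where anti-ETO had no call in either condition. A region of 322 bp beside the shared one was called by knockdown anti-Flag alone.

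**Figure D3:**
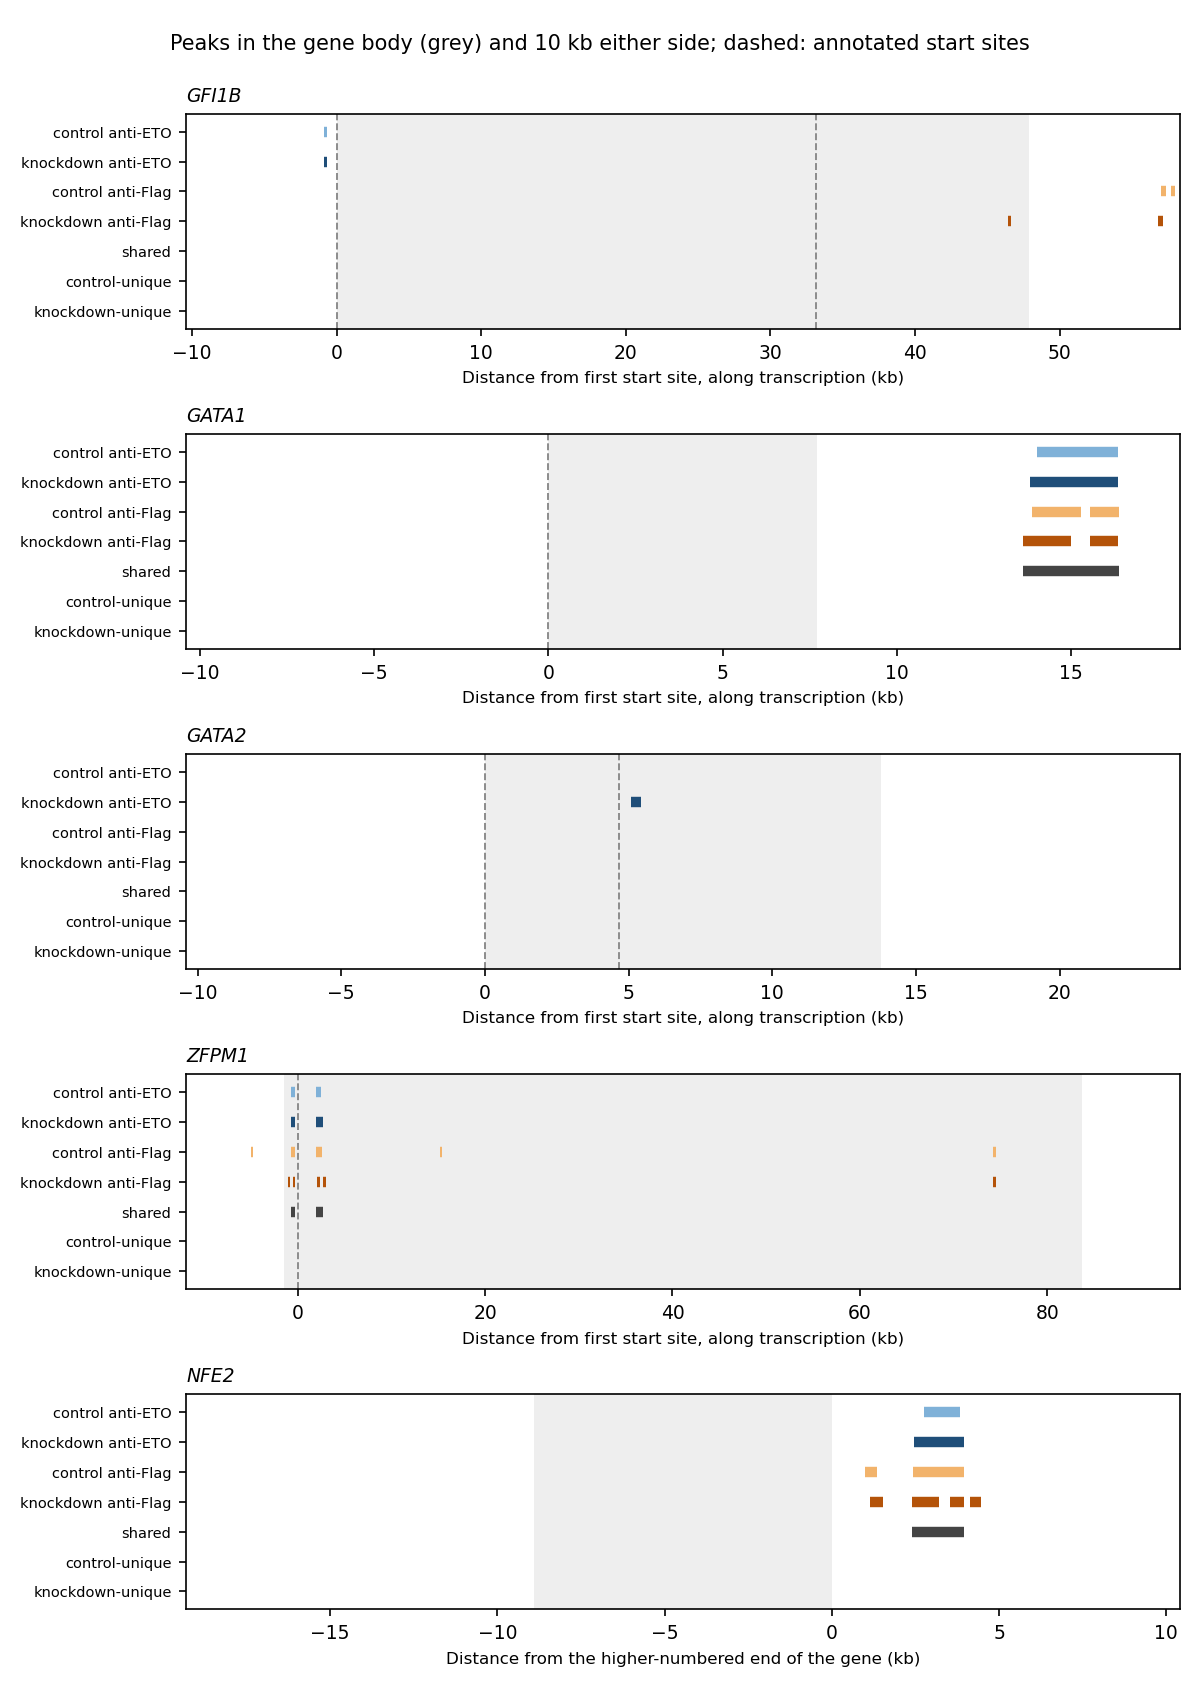
Peaks of 7 lists (rows) around GFI1B, GATA1, GATA2, ZFPM1 and NFE2, with the gene body in grey and annotated start sites as dashed lines; the x axis is the distance in kb along transcription from the first start site (for NFE2, from its higher-numbered end). Coloured bars are peaks. Shared intervals flank the start site drawn inside ZFPM1, lie outside the bodies of GATA1 and NFE2, and are absent at GFI1B and GATA2.

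IKZF1 (chr7:50303455-50405101, plus strand), the Ikaros gene and the longest of the 9, was the only one with control-unique intervals. Peaks covered 1533 bp in control anti-ETO, 2479 bp in control anti-Flag, 1622 bp in knockdown anti-ETO and 704 bp in knockdown anti-Flag. The anti-ETO lists of control and knockdown were close together, and the anti-Flag lists were far apart, with a knockdown-to-control ratio of 0.284. Over the whole anti-Flag lists the ratio of covered length was 0.975.

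The first start site of IKZF1 in the promoter table (chr7:50304716) lies inside the gene, which begins at chr7:50303455. The region at that start site (chr7:50304644-50305468) was called in all 4 lists and was shared. It overlapped promoter 1, by 35 bp in control anti-ETO, 41 bp in control anti-Flag, 122 bp in knockdown anti-ETO and 83 bp in knockdown anti-Flag. The control-unique pair lay deeper in the gene, 31.0 to 34.3 kb downstream of the first start site, at chr7:50335748-50336377 (630 bp) and chr7:50337993-50339044 (1052 bp). At the first of them the calls measured 630 bp in control anti-ETO, 420 bp in control anti-Flag and 223 bp in knockdown anti-ETO. At the second they measured 438 bp in control anti-ETO, 1052 bp in control anti-Flag and 594 bp in knockdown anti-ETO. Knockdown anti-Flag had no call at either, so both intervals count as control-unique while anti-ETO called them in both conditions. This combination of calls was found for 2 of the 34 regions and for 6.48% of all regions of the series. Of all regions called by both control antibodies but not by all 4 lists, 2310 had this combination. Another 626 had no knockdown call and 95 had knockdown anti-Flag only, so the combination at IKZF1 was the usual one among them.

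MYB (chr6:135181308-135219172, plus strand), a factor of dividing progenitors, was the only one of the 9 genes with a knockdown-unique interval. Peaks covered 491 bp in control anti-ETO, 1165 bp in control anti-Flag, 740 bp in knockdown anti-ETO and 575 bp in knockdown anti-Flag. Control anti-Flag was the highest of the 4 values and control anti-ETO the lowest. A shared region of 955 bp (chr6:135180163-135181117) ended 191 bp before the start site. The knockdown-unique interval of 216 bp (chr6:135195385-135195600) lay 14.1 kb inside the gene and was called by both antibodies in knockdown and by neither in control. It did not overlap the lncRNA gene LOC105378011, which also lies in the MYB window, and it is narrower than the median knockdown-unique interval of 517 bp. Control anti-Flag alone called a further region of 210 bp near the start of the gene.

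**Figure D4:**
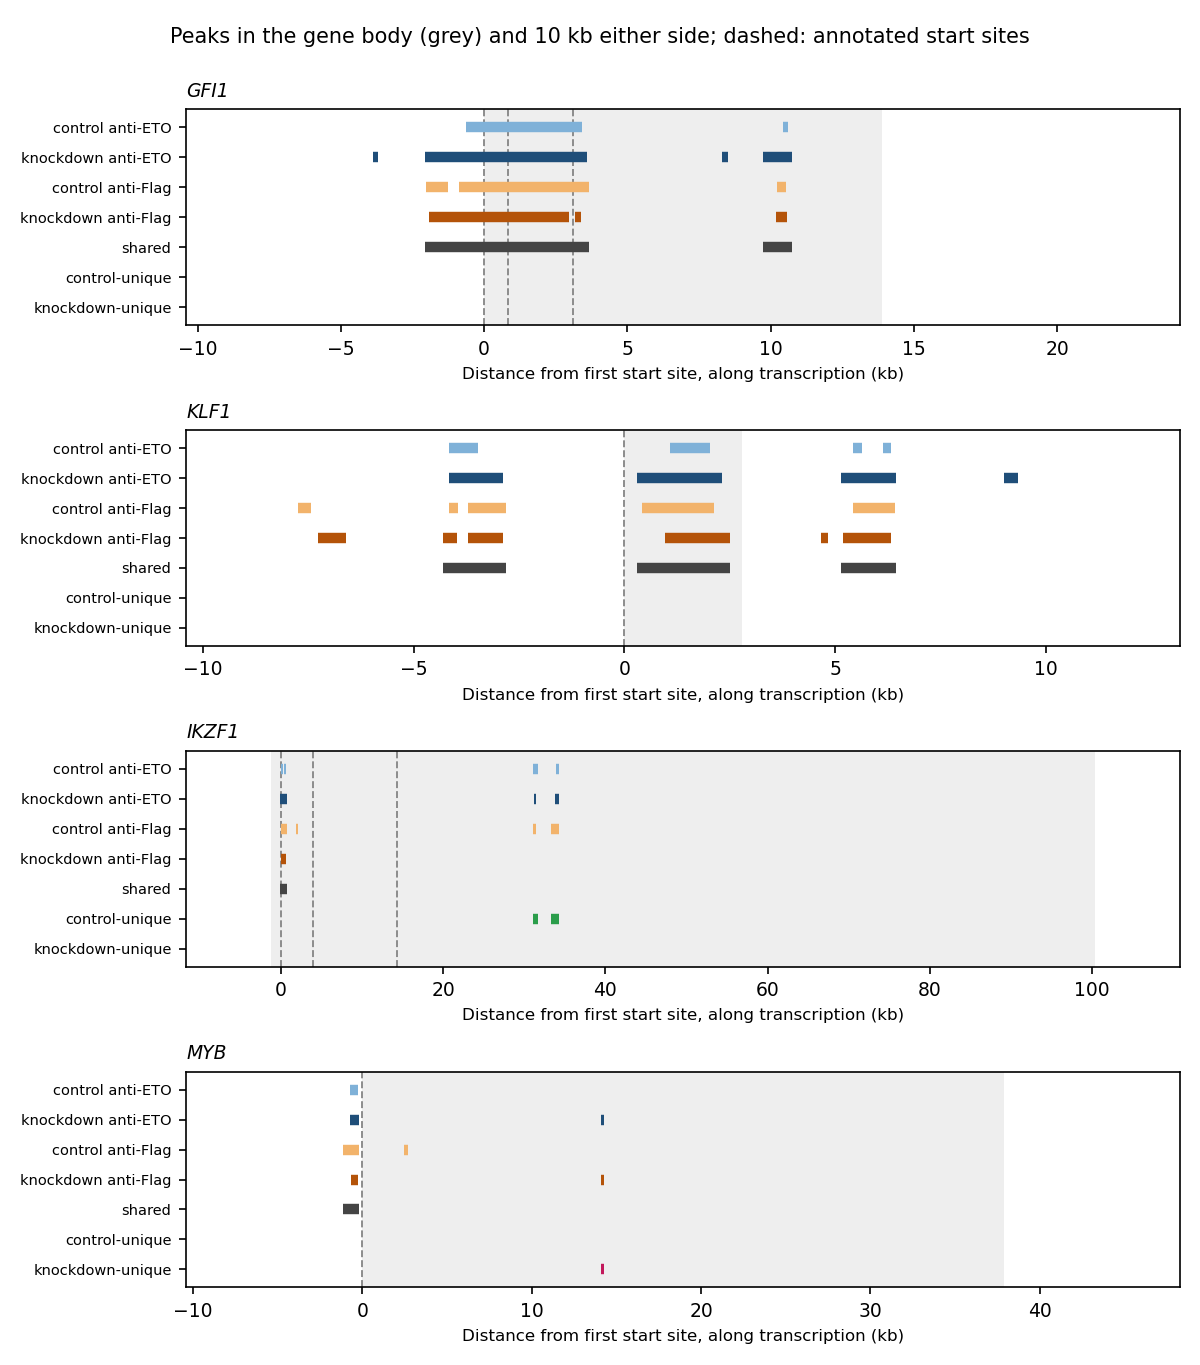
Peaks of 7 lists (rows) around GFI1, KLF1, IKZF1 and MYB, with the gene body in grey and annotated start sites as dashed lines; the x axis is the distance in kb along transcription from the first start site. Coloured bars are peaks; the shared interval of GFI1 spans all 3 start sites, the control-unique pair (green) lies inside IKZF1 and the knockdown-unique interval (magenta) inside MYB.

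Summed over the 9 genes, anti-ETO peaks covered 12801 bp in control cells and 20160 bp after knockdown, a ratio of 1.57 beside 1.67 for the whole anti-ETO lists. Most of the added cover lay in the windows of KLF1 (2893 bp) and GFI1 (2864 bp), and without these 2 genes the ratio was 1.24. Only part of the KLF1 gain was in its body, where the anti-ETO call went from 956 to 2019 bp. The rest lay in regions touching its neighbours. At DNASE2 the shared region went from 401 to 1296 bp, and another of 317 bp had no control call. At GCDH the shared region went from 672 to 1290 bp. For anti-Flag the cover was 19904 bp in control cells and 17526 bp after knockdown, a ratio of 0.881 beside 0.975 for the whole lists. That ratio was 0.965 without IKZF1 and 0.726 without GFI1 and KLF1. Of the 8 genes covered in all 4 lists, 7 had more anti-ETO cover in knockdown, as did 91.0% of the 7444 protein-coding genes covered in all 4, and 6 had less anti-Flag cover, as did 63.4%. With the gaps between the peaks of a list in a region filled, an alternative chosen after seeing the data, these counts were 6 and 5: the anti-ETO change at IKZF1 and the anti-Flag change at GATA1 turned direction. GFI1B had slightly less of both (25 bp for anti-ETO and 81 bp for anti-Flag), and the windows of KLF1 and NFE2 had more of both. In the KLF1 body alone the anti-Flag call went from 1710 to 1536 bp after knockdown. The 2 conditions share no library, but each knockdown value and each control value is 1 list.

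Few peaks lay near the limit of 10 kb. The outermost peak inside it began 9813 bp beyond GFI1B (control anti-Flag), and the nearest one outside began 10481 bp beyond GFI1B (knockdown anti-Flag). The next ones outside lay 11067 bp from GFI1 and 11595 bp from NFE2. From MYB, the nearest peak outside the window was 539.9 kb away, and from IKZF1 it was 36.1 kb away.

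The genes most like the 3 with the largest cover were sought by the Euclidean distance of covered bases over the 4 single-antibody lists. Closest to GFI1 was MRTFA on chromosome 22, with 4209, 5866, 7558 and 5660 bp in control anti-ETO, control anti-Flag, knockdown anti-ETO and knockdown anti-Flag (distance 569 bp). Closest to KLF1 was OGFR on chromosome 20, with 2291, 3844, 4843 and 4802 bp in the same order (distance 414 bp). Closest to GATA1 was MORF4L1 on chromosome 15, with 2187, 2342, 2403 and 2177 bp (distance 197 bp). These are matches of cover over 4 lists and nothing more. They compare whole windows: the GATA1 cover came from the region that touches HDAC6, and part of the KLF1 cover from regions touching DNASE2 and GCDH. Neighbours in the windows of MRTFA, OGFR and MORF4L1 were not examined.

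Around the 9 genes, lists of related genes were read by the same window. Neighbouring genes in those windows were not examined, so a peak counted for a gene may touch a neighbour. These gene lists were chosen with earlier results of these data known. The shares beside them are over all protein-coding genes, not matched for length or gene density, and no difference was tested. Of 12 genes for corepressor partners of GFI1, GATA and Ikaros factors, such as the demethylase KDM1A and its partner RCOR1, 11 had a shared interval, beside 35% of protein-coding genes. The gene of that list without a shared interval was RBBP4. A knockdown-unique interval was found at 7 of the 12 (58.3%, beside 18.4% of protein-coding genes), among them KDM1A, CHD4 and EHMT2, and a control-unique one at 4, RCOR1, HDAC1, MTA1 and RBBP4 (33.3%, beside 16.9%). The median gene of the 12 had 3 control anti-ETO and 4 knockdown anti-ETO peaks, where the median protein-coding gene had 0 and 1. The control-unique intervals of RCOR1, HDAC1 and RBBP4 had an anti-ETO call in knockdown and no anti-Flag call there, as had the pair at IKZF1, while that of MTA1 had neither.

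Of 11 stem cell factor genes, among them RUNX1 and its partner CBFB, 6 had a shared interval (54.5%, beside 35% of protein-coding genes). Another 2, TAL1 and TCF4, had no peak in any single-antibody list (18.2%, beside 41.8%). The medians of the 11 were 2 control anti-ETO and 4 knockdown anti-ETO peaks a gene. The 6 were RUNX1 with 8 shared intervals, LYL1 with 5, TCF3 with 4, CBFB with 3, and LMO2 and LDB1 with 2 each. A control-unique interval was found at 4 of the 11 (36.4%, beside 16.9% of protein-coding genes). A knockdown-unique one was also found at 4 (36.4%, beside 18.4%). Among these genes, FLI1 had a control-unique interval (chr11:128695859-128696314) where knockdown anti-ETO also had a call. ERG had a knockdown-unique one (chr21:38476633-38476923) with no control call.

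Of 23 genes for erythroid and megakaryocytic products, 5 had a shared interval (21.7%, beside 35% of protein-coding genes) and 12 had no peak in any single-antibody list (52.2%, beside 41.8%), including HBB, which encodes beta-globin. The median gene of the 23 had 0 peaks in each single-antibody list. The globin pairs HBA1 and HBA2, and HBG1 and HBG2, share windows and are not separate observations. A control-unique interval was found at 4 of the 23 (17.4%, near the 16.9% of protein-coding genes). A knockdown-unique one was also found at 4 (17.4%, near 18.4%). EPOR, the erythropoietin receptor gene, had 5 shared and 2 knockdown-unique intervals. ITGA2B, encoding the platelet integrin alpha-IIb, had 1 knockdown-unique interval.

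Of 23 paralogs and cofactors of the 9 genes, 9 had a shared interval (39.1%, near the 35% of protein-coding genes) and 7 had no peak in any single-antibody list (30.4%, beside 41.8%). A control-unique interval was found at 4 (17.4%, near 16.9%) and a knockdown-unique one at 6 (26.1%, beside 18.4%). The median was 1 peak a gene in each single-antibody list, and the paralogs split within families. GATA3, GATA4, GATA6, ZFPM2, IKZF2 and IKZF5 had no peak in any of the 4 lists, while IKZF3 had 1 shared interval and IKZF4 had 2 knockdown-unique ones. Among partners and relatives of NFE2, MAFG had 6 shared and 4 knockdown-unique intervals, NFE2L1 had 1 shared and 4 knockdown-unique ones, and MAFF had 1 shared one.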

How the data were processed

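CUT&RUN libraries (200000 sorted cells each, 75-bp reads from both ends, about 40 M reads planned) were reduced by the authors to 9 deposited interval lists, whose values are positions in bp with no score. The submitters' processing notes name fastp 0.19.5, Bowtie2 2.3.5, MACS2 2.2.5, HOMER 4.8 and the builds hg38 and sacCer3, without roles. The peak threshold, the use of IgG and the handling of replicates are not given in the sources used here. A longer or more permissive list adds peaks, and the control anti-ETO list is the shortest.

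The 9 genes and the gene lists were chosen with earlier results of these data known. Named genes were the 9, the closest gene in cover for each of the 3 most covered, and up to 5 genes a list with a unique interval; further genes of those lists were named after their values were seen. Some genes of the lists enter the counts and are not reported here by name. Gene positions and promoters came from RefSeq (GRCh38.p14); exons and introns were not told apart. Intervals were compared at an overlap of at least 1 bp in Python 3.11.15 (numpy 2.4.6, pandas 2.3.3), merged where they overlapped, and printed with starts counted from 1. On simulated intervals, in part for 2000 genes, the functions that count, measure and merge peaks recovered 12 of 12 planted answers. The motif search was not checked in this way. No test was run, since each group is 1 list. Alternatives were other flanks, overlap rules, the wider 50% of each list, equal list lengths and joining across gaps.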

Additional observations from a re-analysis of the deposited data

Results flagged for a closer look

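At 5 genes the change in covered bases from control to knockdown went in opposite directions for the 2 antibodies, more for anti-ETO and less for anti-Flag; the differences were not tested, since each antibody and condition is 1 list. The anti-ETO change exceeded the anti-Flag change by 2994 bp at GFI1, 1864 bp at IKZF1, 839 bp at MYB, 642 bp at ZFPM1 and 270 bp at GATA1. At GFI1 nearly all of it was anti-ETO (2864 bp more), and at IKZF1 nearly all was anti-Flag (a change of -1775 bp). Covered bases leave out the gaps between split peaks. With those gaps filled, opposite directions remained at GFI1, ZFPM1 and MYB; at GATA1 the anti-Flag change was 230 bp in place of -52 bp, and at IKZF1 the anti-ETO change was -110 bp in place of 89 bp. By covered bases, the same pair of directions was found for 55.4% of the 7444 protein-coding genes covered in all 4 lists, and the opposite pair for 0.833%.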

How the results depend on the processing

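Of 74 values under other windows, overlap rules or list lengths, 55 stayed within 1.5 times the reported count and 19 did not; the alternatives change the windows, the overlap rule or how regions are joined, or drop peaks, by construction. With the gene body alone, the genes with a peak numbered 4 in control anti-ETO, 5 in control anti-Flag and 4 in the shared list, and the called regions numbered 8 (control anti-ETO), 12 (control anti-Flag), 11 (knockdown anti-ETO) and 11 (knockdown anti-Flag). With 50 kb either side, control-unique intervals were found at 2 genes and knockdown-unique ones at 4, and the called regions numbered 33, 55, 52 and 70 in the same order of lists. With the wider 50% of each list, 4 genes had a shared and 0 a knockdown-unique interval, so the MYB interval dropped out, and the called regions numbered 8, 12, 12 and 12. With the 4 single-antibody lists at the length of the shortest, 8, 8, 8 and 7 genes had a peak. For the 50 kb window, the wider 50% and the shortened lists, shares over all protein-coding genes were not computed. A wider window can hold more peaks at any gene. The gene counts under these settings therefore do not show how the named genes stand among all genes. With the gaps between the peaks of a list in a region filled (chosen after seeing the data), the genes with more anti-ETO and less anti-Flag cover in knockdown numbered 3 instead of 5. No paired analysis was possible because the lists carry no values per replicate, and leaving out each replicate could not be run for the same reason.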

Other observations

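Between 10 and 100 kb from the genes, intervals called by both antibodies were spread unevenly among these genes. Counts at that distance were not computed over all protein-coding genes. They therefore do not show how the named genes stand among all genes. KLF1, in a gene-dense stretch of chromosome 19, had 20 shared, 1 control-unique and 12 knockdown-unique intervals there. The widest was a shared one of 6904 bp across HOOK2 and JUNB, a gene of the AP-1 family, and another of 3232 bp touched CALR, which encodes a chaperone of the endoplasmic reticulum. NFE2 had 5 shared intervals at that distance, GFI1B, GATA1 and ZFPM1 had 2 each, and GFI1 and IKZF1 had 1 each. NFE2 also had 1 control-unique and 1 knockdown-unique interval there, and GFI1B had 1 knockdown-unique interval. GATA2 and MYB had 0 of any kind.

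IKZF1 also had another control-unique interval, of 573 bp, 36.1 kb before the gene (chr7:50266792-50267364), with no annotated gene under it. Beyond ZFPM1, a control-unique interval of 208 bp (chr16:88569988-88570195) lay next to a knockdown-unique one of 582 bp (chr16:88570446-88571027).

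Over all promoters of the RefSeq table, a RUNX match was present in 24.7% of the 4830 overlapped in all 4 lists and in 18.9% of the 24908 overlapped in none. A GATA match was present in 5.13% and 20.6%, and an ETS match in 51.4% and 42.7%. The GFI letters were present in 4.35% and 16.5%, and the E-box letters in 23.6% and 32.3%. These shares were not adjusted for base composition, and no test was run on them.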
